A study of Mus musculus with 6 samples.

Results

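Transcripts of 10 genes that tag activated receptors with ubiquitin and gather them into clathrin-coated pits were measured in MEFs, fibroblasts taken from mouse embryos and grown as primary cultures. The genes are Cbl, Cblb, Ston1, Ston2, Eps15, Epn1, Epn2, Sh3kbp1, Cd2ap and Hip1, out of 51826 genes in each deposited table, and all 10 were among the 14652 genes that passed a filter on low counts. They were listed by name, and the list was drawn up because Cbl and Ston1 separated the genotypes in these same libraries, so differences between the genotypes are given for them as a description without a test. The groups were 3 cultures heterozygous for Lztr1 (Lztr1 +/-, cultures 11, 15 and 18) and 3 wild-type cultures (Lztr1 +/+, cultures 10, 12 and 16). All 6 were on a C57BL/6 background, at passage 2 to 5 and without a stated treatment. LZTR1 recruits RAS-family proteins to a ubiquitin ligase built on CUL3. The sources used here do not give the structure of the mutant allele, the age of the embryos or whether each culture came from its own embryo. The p-values therefore set a difference only against the scatter among these 6 cultures, and part of that scatter may be technical.

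CBL proteins are ubiquitin ligases that bind phosphorylated receptor tyrosine kinases and attach ubiquitin to them. Adaptors at the plasma membrane then collect the tagged receptors. EPS15 and the epsins bind ubiquitin and the AP2 complex, and the epsins also bind clathrin. SH3KBP1 (also called CIN85) and CD2AP bridge CBL to membrane-bending proteins, stonins pick particular cargo for AP2, and HIP1 ties the coat to actin. Receptors taken up in this way are recycled or sent to lysosomes, which limits the signal that reaches RAS.

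Libraries held 11025286 to 21885101 expected counts, the estimates of reads per gene made by RSEM. Lztr1 matched the genotype labels in all 6, at 45.9, 45.1 and 43.8 CPM (read counts scaled to library size and composition) in heterozygous cultures 11, 15 and 18, against 93.9, 94.1 and 83.2 CPM in wild-type cultures 10, 12 and 16. Its log2 difference was -1.01 (SE 0.066), and edgeR's quasi-likelihood test, adjusted by Benjamini and Hochberg's method, gave an adjusted p of 0.00457. It was the only gene called at an adjusted p under 0.05, or 0.00683% of all genes. Leaving out 1 culture gave adjusted p from 0.000446 without wild-type culture 16 to 0.0759 without heterozygous culture 18, and 5 of these 6 fits were above 0.05. Markers of fibroblasts were abundant in every culture, with 8 markers summing to 19493 to 22583 CPM in heterozygous and 20585 to 25943 CPM in wild-type cultures. The 5 macrophage markers summed to 116 to 224 CPM in heterozygous and 136 to 204 CPM in wild-type cultures, the 4 epithelial markers to 79.6 to 178 CPM and 84.2 to 139 CPM, the 4 endothelial markers to 27.0 to 35.2 CPM and 15.2 to 26.2 CPM, and the 4 erythroid markers to 30.2 to 73.6 CPM and 16.5 to 69.8 CPM. The 4 skeletal muscle markers summed to 176 to 236 CPM in heterozygous and 172 to 227 CPM in wild-type cultures, with Ckm below 1 CPM throughout, and the 4 neural and Schwann markers to 12.2 to 29.9 CPM and 14.6 to 26.0 CPM. The endothelial sum was the only one of these that did not overlap between the genotypes. In bulk RNA of this kind, fewer cells of a type and less RNA per cell cannot be told apart.

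The 10 genes covered a wide range of levels, from the epsin gene Epn1 at the top to the stonin gene Ston2 at the bottom. On the TPM scale, which divides by transcript length and so allows genes to be set side by side, the mean over the 6 cultures was 89.7 ± 5.30 for Epn1, 65.1 ± 10.2 for Sh3kbp1 and 54.7 ± 9.02 for Ston1 (SD, n = 6). Eps15 and Hip1 followed at 37.2 ± 2.45 and 37.1 ± 4.77 TPM. Epn2 stood at 21.3 ± 3.11 TPM, Cbl at 15.5 ± 2.15, Cd2ap at 13.9 ± 1.19, Cblb at 8.18 ± 0.383 and Ston2 at 1.46 ± 0.754. The ranges over the 6 cultures did not overlap between Epn1 and Sh3kbp1, between Ston1 and Eps15, between Hip1 and Epn2, between Cd2ap and Cblb, or between Cblb and Ston2. Sh3kbp1 and Ston1 overlapped, as did Eps15 and Hip1, Epn2 and Cbl, and Cbl and Cd2ap. Measured within the same culture, Epn2 was above Cbl in 6 of 6 cultures, Sh3kbp1 above Ston1 in 5, Cbl above Cd2ap in 5, and Eps15 above Hip1 in 1, so the last pair has no firm order. Among all tested genes Epn1 lay at the 88.1 percentile of mean TPM, Cbl at the 50.6 percentile and Ston2 at the 10.5 percentile. The third mouse CBL gene, Cblc, had 0 to 2 counts per library and was not tested at this depth.

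**Figure D1:**
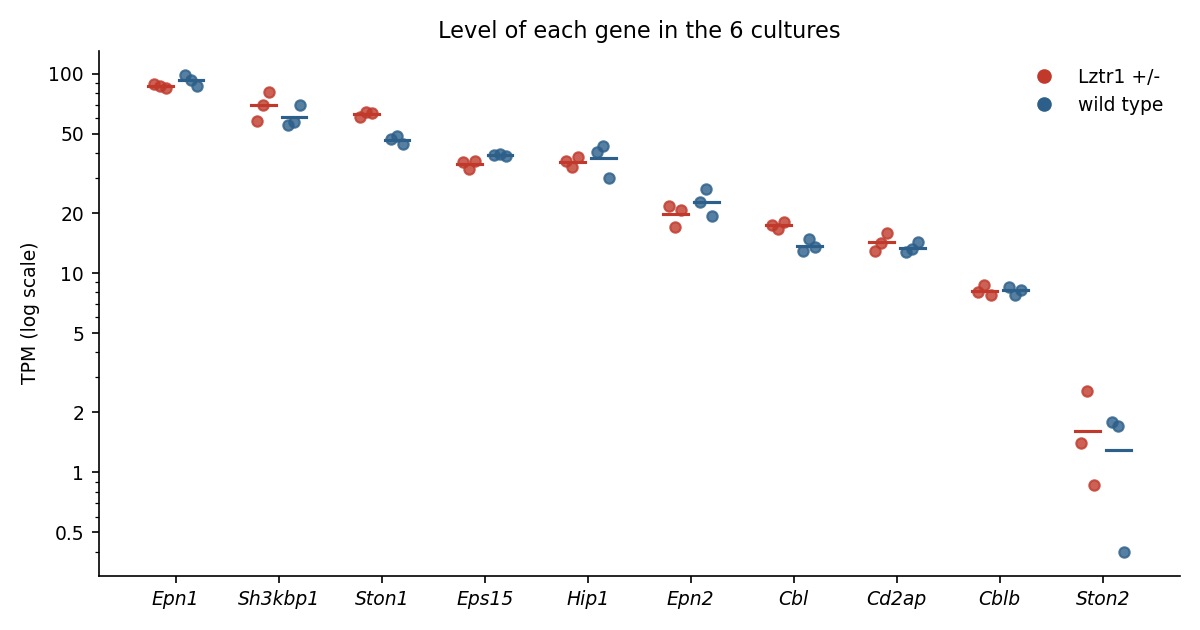
Each point is 1 culture and each short line the mean of 3, with TPM on a log axis and genes ordered by their mean. Heterozygous points of Cbl and Ston1 lie above all wild-type points, those of Eps15 lie below them, and Ston2 is spread from 0.40 to 2.55 TPM.

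Among the CBL ligases, Cbl was higher in the heterozygous cultures and Cblb was at the same level in both genotypes within its spread. Cbl (ENSMUSG00000034342.9, minus strand, chr9:44142976-44234049, mm10) measured 112, 117 and 119 CPM in heterozygous cultures 11, 15 and 18, against 86.8, 95.5 and 94.0 CPM in wild-type cultures 10, 12 and 16. Every heterozygous culture lay above every wild-type culture. The log2 difference was 0.33 (SE 0.057), which is 25.9% more, with means of 116 ± 3.28 CPM and 92.1 ± 4.66 CPM (SD, n = 3 each). Cblb (ENSMUSG00000022637.10, plus strand, chr16:52031225-52208048, mm10), the paralog best known for restraining T-cell activation, measured 30.2, 33.5 and 29.1 CPM in heterozygous cultures 11, 15 and 18 and 31.6, 28.2 and 32.3 CPM in wild-type cultures 10, 12 and 16. The groups were intermixed, with a log2 difference of 0.01 (SE 0.086). Cbl made up 68.4%, 65.7% and 70.0% of the summed TPM of Cbl and Cblb in the heterozygous cultures, against 60.0%, 65.5% and 62.1% in the wild-type cultures, which did not overlap, though cultures 15 and 12 nearly met. The summed endothelial markers, at 27.0 to 35.2 CPM in heterozygous and 15.2 to 26.2 CPM in wild-type cultures, were also higher in all heterozygous cultures. So was 1 of the 4 markers, Kdr, by itself, though heterozygous culture 18 and wild-type culture 16 nearly met, at 16.5 and 16.4 CPM. None of the 4 endothelial markers was below 1 CPM throughout. Their part in the difference of Cbl, or of Ston1, was not tested.

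The stonin genes differed from each other in level far more than either did between genotypes. Ston1 (ENSMUSG00000033855.15, plus strand, chr17:88597684-88662586, mm10) measured 89.1, 94.8 and 96.2 CPM in heterozygous cultures 11, 15 and 18, against 73.1, 70.0 and 71.6 CPM in wild-type cultures 10, 12 and 16. The groups were set apart by a gap wider than the range within either of them. Its log2 difference of 0.38 (SE 0.054), or 30.3% more, was the largest of the 10. Ston2 (ENSMUSG00000020961.15, minus strand, chr12:91633009-91788387, mm10), a stonin that sorts synaptotagmin in neurons, measured 4.61, 4.67 and 5.07 CPM in the heterozygous cultures, against 4.58, 4.51 and 2.47 CPM in the wild-type cultures. All heterozygous values were nominally above the wild-type ones, but wild-type cultures 10 and 12 lay close below and only culture 16 was low. The log2 difference was 0.30 (SE 0.25), and without culture 16 it was 0.07. Ston1 supplied 96.2% to 98.6% of the summed stonin TPM in heterozygous cultures and 96.3% to 99.1% in wild-type cultures.

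Because Cbl and Ston1 had the largest log2 differences of the 10, the sequence around their start sites is shown, as 250 bases before to 50 after the RefSeq start (GRCm38.p6). Capitals mark matches, on either strand, to the motifs searched: CCGGAA for ETS factors, TGAGTCA for AP-1, GGGCGG for Sp factors, TATAAA for the basal factor TBP, CACGTG for E-box proteins such as MYC, GGAATG for TEAD factors and CCAAT for the factor NF-Y. The Cbl window is chr9:44233997-44234296 on the minus strand, and the Ston1 window is chr17:88626305-88626604 on the plus strand, inside the annotated span of the gene rather than at its outermost start.
Cbl: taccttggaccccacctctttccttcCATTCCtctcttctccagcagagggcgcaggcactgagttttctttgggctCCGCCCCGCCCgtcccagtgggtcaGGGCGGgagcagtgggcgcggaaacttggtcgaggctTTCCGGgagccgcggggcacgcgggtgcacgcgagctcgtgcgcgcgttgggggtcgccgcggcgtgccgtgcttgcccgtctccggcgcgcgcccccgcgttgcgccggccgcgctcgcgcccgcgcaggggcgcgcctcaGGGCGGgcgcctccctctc
Ston1: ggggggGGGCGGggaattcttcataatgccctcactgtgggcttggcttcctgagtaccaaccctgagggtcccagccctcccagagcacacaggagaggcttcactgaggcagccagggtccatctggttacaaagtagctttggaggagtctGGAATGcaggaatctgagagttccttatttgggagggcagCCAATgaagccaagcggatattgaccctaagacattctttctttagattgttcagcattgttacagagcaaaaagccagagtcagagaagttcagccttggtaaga
The Cbl window was 74.0% G or C with 43 CpG dinucleotides and held 4 Sp matches, a pair of which share 1 base, 1 ETS match and 1 TEAD match. The Ston1 window was 51.7% G or C with 2 CpG and held 1 match each to the Sp, TEAD and CCAAT motifs. Over all 32851 windows of this length in the table the medians were 52.7% and 7 CpG. TEAD letters stood in 14.7% of all windows, Sp letters in 35.7%, CCAAT in 37.4% and ETS letters in 14.9%. The motifs that neither window held, AP-1, TATA box and E-box, stood in 5.20%, 13.6% and 7.15%. All 10 genes had a RefSeq window, with 15 windows in all. Only those of Cbl and Ston1 held the TEAD letters, a share near the 14.7% of all windows. A match is a string of letters and not a mapped binding site.

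The adaptors that bridge CBL to the membrane, Sh3kbp1 and Cd2ap, had higher means in the heterozygous cultures but overlapped between the genotypes. Sh3kbp1 (ENSMUSG00000040990.17, plus strand, chrX:159627272-159978069, mm10) measured 94.0, 119 and 127 CPM in heterozygous cultures 11, 15 and 18, against 88.9, 90.7 and 111 CPM in wild-type cultures 10, 12 and 16. The genotypes overlapped, with a log2 difference of 0.22 (SE 0.13) and means of 113 ± 17.1 CPM and 96.8 ± 12.2 CPM. Cd2ap (ENSMUSG00000061665.6, minus strand, chr17:42792951-42876665, mm10), a scaffold also known from kidney podocytes, measured 41.5, 46.4 and 50.5 CPM in the heterozygous cultures and 40.1, 40.5 and 47.5 CPM in the wild-type cultures. Its groups overlapped too, with a log2 difference of 0.11 (SE 0.098). With the run of culture numbers as a term in the fit the genotype difference was 0.11 for Sh3kbp1 and 0.04 for Cd2ap. Without heterozygous culture 18 it was 0.14 and 0.05. It was 0.34 and 0.18 without heterozygous culture 11, and 0.33 and 0.19 without wild-type culture 16. Leaving out culture 11 or 16 partly mixes genotype with the run of culture numbers. Both genes were low in cultures 10, 11 and 12 and high in cultures 15, 16 and 18.

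The titles number the cultures in a run from 10 to 12 and another from 15 to 18, each holding both genotypes, and no label calls these runs batches. With genotype in the same edgeR fit, Sh3kbp1 was 0.35 higher (SE 0.054, log2) in cultures 15 to 18 than in 10 to 12, at 119 ± 8.02 CPM against 91.2 ± 2.57 CPM (SD, n = 3 each), and its adjusted p was 0.135. Cd2ap was 0.23 higher (SE 0.064), at 48.1 ± 2.16 CPM against 40.7 ± 0.731 CPM, with an adjusted p of 0.231. Neither passed the threshold of 0.05, and of the 10 genes 0 did, with 2 at an unadjusted p under 0.05. Over all 14652 genes edgeR called 0.0478% between the runs and 13.7% had an unadjusted p under 0.05. These 2 genes were also the only ones of the 10 whose CPM did not overlap between the runs, which held for 20.9% of all genes, 10.7% being higher in cultures 15 to 18, so 2 of 10 is near the share of all genes. Over 9 alternatives, among them leaving out any 1 culture, the difference of Sh3kbp1 between the runs stayed between 0.30 and 0.39 and its edgeR adjusted p between 0.0728 and 0.423. With Y-linked expression as a term it was 0.33. That term was fitted because Sh3kbp1 is X-linked. The 4 Y-linked genes were expressed in heterozygous cultures 15 and 18 and wild-type culture 12.

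Markers of 3 other cell types were higher in the same run, and the sums of the other lists overlapped. All 5 macrophage markers were higher in each of cultures 15, 16 and 18 than in 10, 11 and 12, summing to 199 to 224 CPM against 116 to 140 CPM. The same held for all 4 epithelial markers, at 139 to 178 CPM against 79.6 to 91.0 CPM, and for all 4 erythroid markers, at 65.5 to 73.6 CPM against 16.5 to 30.2 CPM. The endothelial sums overlapped, at 26.2 to 35.2 CPM against 15.2 to 27.0 CPM, as did those of skeletal muscle, at 172 to 236 CPM against 188 to 227 CPM, of neural and Schwann markers, at 12.2 to 20.9 CPM against 14.6 to 29.9 CPM, and of fibroblasts, at 20585 to 22583 CPM against 19493 to 25943 CPM. Gene by gene, 2 of the 4 endothelial markers did not overlap between the runs, each higher in cultures 15 to 18. Of the 8 fibroblast markers 3 did not overlap, with 1 higher in cultures 15 to 18. For skeletal muscle it was 1 of 4, lower in those cultures, and for neural and Schwann markers 0 of 4. The part of these cell types in the levels of Sh3kbp1 and Cd2ap was not tested.

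**Figure D2:**
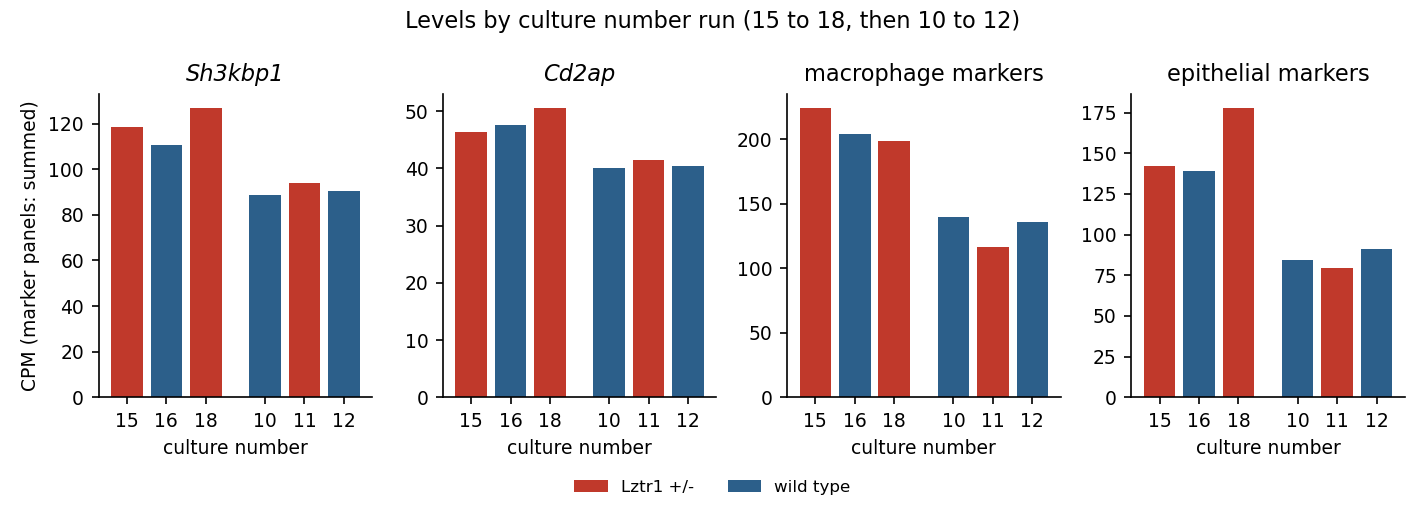
Bars give CPM per culture (summed over the marker list in the panels at the right), with cultures 15, 16 and 18 left of 10, 11 and 12 and colours for genotype. Sh3kbp1, Cd2ap and both marker lists are higher in all of the first 3 bars than in any of the last 3, whatever the genotype.

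The ubiquitin-binding adaptors Eps15, Epn1 and Epn2 had lower means in the heterozygous cultures. Eps15 (ENSMUSG00000028552.13, plus strand, chr4:109280268-109387817, mm10) measured 75.8, 72.0 and 74.7 CPM in heterozygous cultures 11, 15 and 18, against 83.7, 81.1 and 76.2 CPM in wild-type cultures 10, 12 and 16. The groups did not overlap, though heterozygous culture 11 and wild-type culture 16 nearly met. The log2 difference was -0.12 (SE 0.057), or -7.68% as a percentage. Epn2 (ENSMUSG00000001036.17, minus strand, chr11:61517249-61579687, mm10) measured 48.1, 41.6 and 41.2 CPM in the heterozygous cultures, against 50.4, 54.2 and 49.6 CPM in the wild-type cultures. These groups did not overlap in CPM, and the log2 difference was -0.23 (SE 0.080), but in TPM they did, at 17.1 to 21.6 against 19.4 to 26.3. Epn1 (ENSMUSG00000035203.16, plus strand, chr7:5080235-5098178, mm10), the most abundant of the 10, measured 99.8, 105 and 99.1 CPM in the heterozygous cultures and 117, 104 and 109 CPM in the wild-type cultures. Heterozygous culture 15 and wild-type culture 12 were level, so the groups overlapped, and the log2 difference was -0.12 (SE 0.059). Epn1 made up 80.3% to 83.5% of the summed epsin TPM in heterozygous cultures and 78.0% to 81.7% in wild-type cultures.

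Hip1 (ENSMUSG00000039959.13, minus strand, chr5:135406531-135545120, mm10), which links clathrin to actin, measured 132, 122 and 137 CPM in heterozygous cultures 11, 15 and 18 and 154, 160 and 120 CPM in wild-type cultures 10, 12 and 16. Wild-type culture 16 was the lowest of all 6 and the other wild-type cultures the highest, so the genotypes overlapped. The log2 difference was -0.15 (SE 0.11) over the 6 cultures. It was -0.24 within cultures 10 to 12 and 0.11 within 15 to 18, and without culture 16 it was -0.26.

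Across the 10 genes 6 had a higher and 4 a lower mean in the heterozygous cultures, with a median log2 difference of 0.06, against a median of -0.00178 over all tested genes. The CPM of the genotypes did not overlap in 5, where 17.7% of all genes were separated in this way. Cbl, Ston1 and Ston2 were the 3 on the higher side, against 7.75% of all genes, and Eps15 and Epn2 the 2 on the lower, against 9.97%. In TPM it was 3, Cbl, Ston1 and Eps15, against 16.4% of all genes. The list was assembled on this contrast, so these counts are descriptive. Within the runs 8 genes had the same sign of difference in both, and Cblb and Hip1 did not. Within cultures 10 to 12 Cbl differed by 0.30 and within 15 to 18 by 0.32, Ston1 by 0.32 and 0.42, Epn2 by -0.12 and -0.26, and Eps15 by -0.12 and -0.05. For the 5 separated genes, sign within a run is fixed by the separation and shows size alone.

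**Figure D3:**
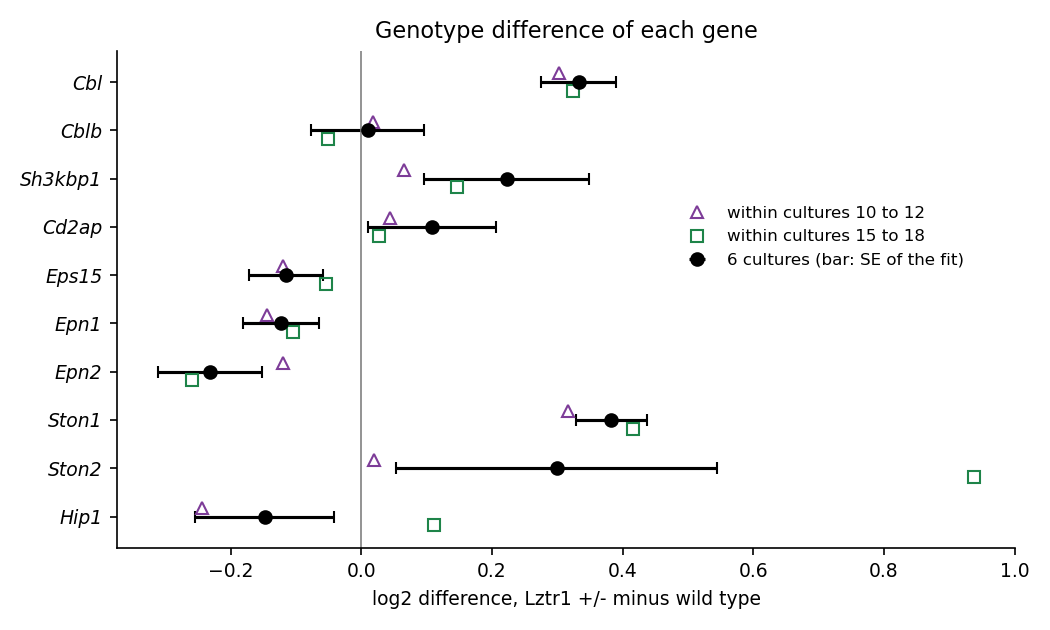
Filled points are fitted log2 differences, heterozygous minus wild-type, with their SE, and open symbols are differences of mean log2 CPM within each run of culture numbers. Cbl and Ston1 lie between 0.30 and 0.42 in every set, Hip1 changes sign between the runs, and Ston2 ranges from 0.02 to 0.94.

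The tables also give for each library the mean length of a gene's transcripts weighted by their estimated abundance, a measure of the isoform mix that did not enter the choice of genes. Cblb and Cd2ap had 1 transcript each in the tables and the other 8 genes had 7 to 14. Hip1 was the only 1 of the 8 whose weighted lengths did not overlap between genotypes. They were 6054, 5895 and 6077 bases in heterozygous cultures 11, 15 and 18, against 6480, 6428 and 6466 bases in wild-type cultures 10, 12 and 16. Lengths differed by -449 bases, with means of 6009 ± 99.0 and 6458 ± 26.8 bases (SD, n = 3 each), and wild-type culture 16, which stood apart in the level of Hip1, was with the other wild-type cultures here. The exact two-sided permutation test gave p = 0.1, below which 3 against 3 cannot go, and 0.8 after Benjamini-Hochberg adjustment over the 8 genes. Of 11334 tested genes with several transcripts, weighted lengths did not overlap in 11.3%, and 6.62% were shorter in all heterozygous cultures, so 1 of 8 is near that share. The 2 longest Hip1 transcripts in GENCODE are protein coding. The one of 7835 bases starts at the outer end of the gene, and the one of 6224 bases starts well inside it, at position 135435148 of chromosome 5. Gene-level tables do not show which transcripts account for the difference. For the genes with 1 transcript, deposited and GENCODE lengths differed, at 6323 and 6648 bases for Cblb and 5399 and 5364 for Cd2ap. The GENCODE lengths given here may therefore not be those behind the deposited values.

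RefSeq places start sites of Hip1 at the outer end of the gene, in the window chr5:135545073-135545372, and further in, in the window chr5:135489180-135489479, both on the minus strand of GRCm38.p6. They are shown since Hip1 was the gene whose transcript lengths separated the genotypes, with capitals for the same motifs.
Hip1 outer start: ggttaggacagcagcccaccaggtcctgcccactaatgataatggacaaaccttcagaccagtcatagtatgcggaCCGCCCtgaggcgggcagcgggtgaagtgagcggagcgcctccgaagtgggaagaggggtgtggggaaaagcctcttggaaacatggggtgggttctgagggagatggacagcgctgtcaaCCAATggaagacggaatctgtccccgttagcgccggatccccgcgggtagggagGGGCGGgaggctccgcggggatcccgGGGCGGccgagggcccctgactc
Hip1 inner start: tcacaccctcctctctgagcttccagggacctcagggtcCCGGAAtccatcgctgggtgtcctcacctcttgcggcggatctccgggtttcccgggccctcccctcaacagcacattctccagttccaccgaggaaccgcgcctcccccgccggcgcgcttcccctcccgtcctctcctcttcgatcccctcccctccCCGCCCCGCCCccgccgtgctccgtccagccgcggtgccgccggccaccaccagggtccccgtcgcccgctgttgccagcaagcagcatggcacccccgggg
The outer window was 64.0% G or C with 20 CpG and held 3 Sp matches and 1 CCAAT match. The inner window was 71.7% G or C with 28 CpG and held 2 Sp matches, which share 1 base, and 1 ETS match. The inner window is not at the start of the 6224-base transcript, and no value in the tables is assigned to either start.

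For the other genes the weighted length overlapped between genotypes, with exact p from 0.2 for Ston1 to 1.0 for Eps15. Ston1 measured 2591, 2539 and 2696 bases in heterozygous cultures 11, 15 and 18 and 2783, 2652 and 2721 bases in wild-type cultures 10, 12 and 16. Cbl was between 10708 and 11372 bases in all 6 cultures, near its longest annotated transcript of 11372 bases. Ston2 behaved differently, at 5497, 3108 and 9740 bases in the heterozygous and 4415, 4666 and 9896 bases in the wild-type cultures, a 3.18-fold range. Its transcripts include 1 of 9896 and another of 2944 bases, and its libraries held only 27 to 100 counts, so the apportioning rests on few reads. Since TPM divides by this length, Ston2 varied 6.38-fold between cultures in TPM and 2.05-fold in CPM, and its TPM is the less firm measure.

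**Figure D4:**
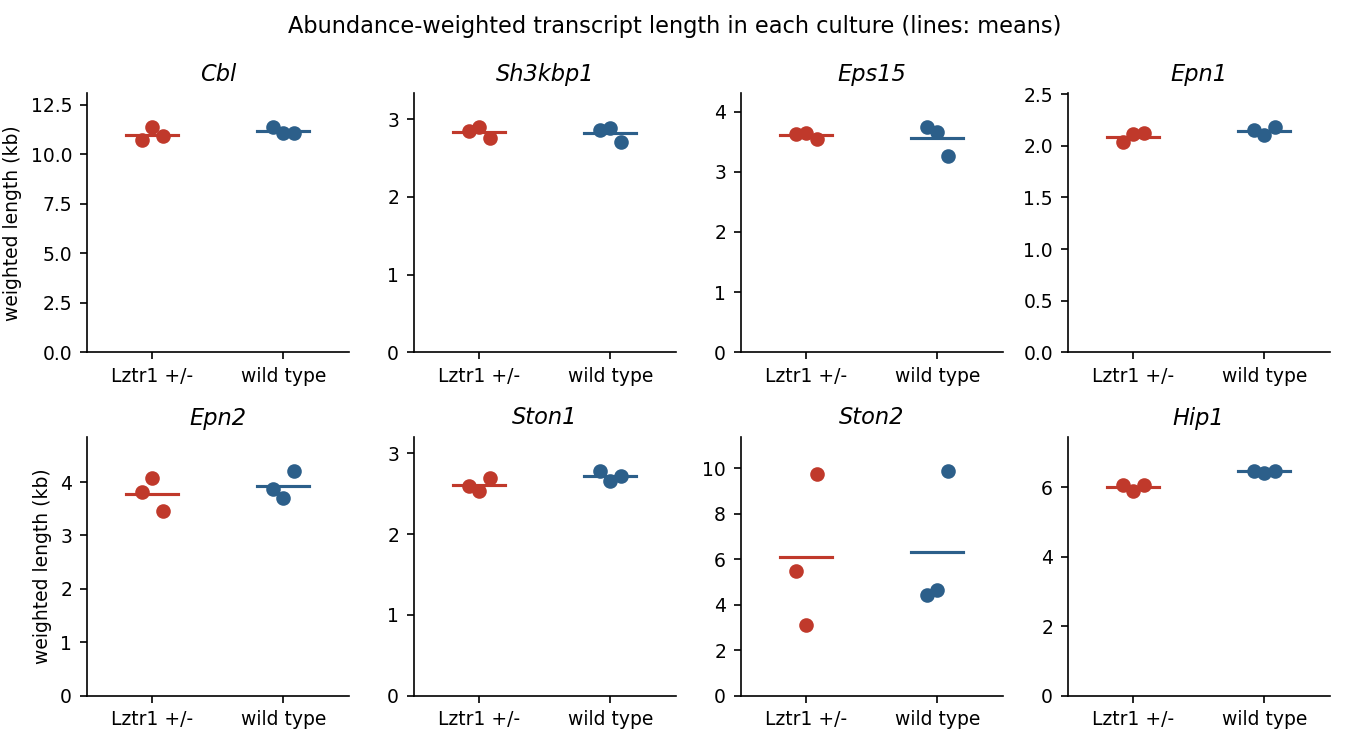
Points are the abundance-weighted transcript length in kilobases for each culture and lines are means of 3, for the 8 genes with several annotated transcripts. Hip1 is shorter in all heterozygous cultures, and Ston2 spans 3.1 to 9.9 kb.

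The rest of the pathway was examined through 8 lists of genes grouped by function, 108 in all, of which 103 were tested. By edgeR 0 passed over all genes, 15 were below 0.05 before adjustment, of which 11 were higher and 4 lower in heterozygous cultures, and DESeq2 called 2, among them Dnm1. In percent, 14.6% of the tested list genes had an unadjusted p under 0.05, against 12.2% of all genes. CPM did not overlap between genotypes in 13 of the 103, or 12.6%, against 17.7%. The median log2 difference over the lists was 0.04, with 66 genes higher and 37 lower. The share higher was 64.1%, against 49.6% of all tested genes. None of the genes named from these lists passed edgeR's test over the 6 cultures. Without wild-type culture 16, which leaves wild-type cultures 10 and 12, edgeR called 13 of the list genes, 11 higher and 2 lower. Over all genes it called 5.93%. Those wild-type cultures are of the run 10 to 12 and heterozygous cultures 15 and 18 of the other. This fit therefore partly mixes genotype with culture run. The same limit applies to every other value given here without culture 16. It also applies to genotype differences given without heterozygous culture 11, where heterozygous cultures 15 and 18 remain.

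The clathrin coat and its AP2 adaptor complex differed little, with 7 of 10 genes higher and a median of 0.06. The AP2 subunit gene Ap2b1 averaged 234 ± 6.94 CPM in heterozygous and 212 ± 8.14 CPM in wild-type cultures (0.14, SE 0.056). The clathrin assembly gene Picalm differed by 0.19 (SE 0.096) but overlapped between the genotypes. Wild-type culture 16, at 620 CPM, lay above heterozygous culture 15, at 574 CPM. Without culture 16 Picalm differed by 0.30 at an edgeR adjusted p of 0.0365, in the fit that partly mixes genotype with culture run. On the lower side were the light chain gene Clta (-0.07, SE 0.063) and Ap2a1 (-0.02, SE 0.061). Among 19 genes of pit initiation and cargo selection, 13 were higher and the median was 0.08. That median was -0.04 with effective lengths as an offset and -0.06 with limma on either log2 scale of TPM, the opposite direction. The scaffold gene Itsn2 averaged 54.9 ± 1.48 CPM in heterozygous and 46.1 ± 3.90 CPM in wild-type cultures (0.25, SE 0.075), and the EPS15-family gene Reps1 differed by 0.13 (SE 0.060). Itsn1, a scaffold gene of the same family as Itsn2, differed by -0.06 (SE 0.064). For scission and uncoating 10 of 19 were higher, with a median of 0.00047. Dnm1, a dynamin that cuts vesicles from the membrane, measured 45.1, 43.9 and 40.4 CPM in heterozygous cultures 11, 15 and 18, against 64.9, 61.7 and 50.9 CPM in wild-type cultures 10, 12 and 16. The groups did not overlap, with a log2 difference of -0.46 (SE 0.097). Its edgeR adjusted p was 0.313, and without culture 16 it differed by -0.55 at an edgeR adjusted p of 0.00879. The endophilin gene Sh3gl3 differed by -0.58 (SE 0.28), the phosphoinositide phosphatase gene Synj1 by 0.25 (SE 0.089) and the sorting nexin gene Snx9 by 0.19 (SE 0.13).

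Among CBL partners Sorbs2 and Sorbs3, which encode adaptors of 1 family that binds CBL and the cytoskeleton, did not overlap between genotypes and differed in opposite directions. Sorbs2 averaged 41.0 ± 5.84 CPM in heterozygous and 29.8 ± 5.00 CPM in wild-type cultures (0.47, SE 0.14). Sorbs3 averaged 52.5 ± 2.25 CPM in heterozygous and 61.5 ± 3.91 CPM in wild-type cultures (-0.23, SE 0.068). Without culture 16 edgeR called both, at 0.61 and -0.28. The adaptor gene Shc1 differed by -0.10 (SE 0.058). Of the 24 tested partners 16 were higher, with a median of 0.05. Of 14 tested receptors that CBL is known to bind, 8 were higher and 6 lower, with a median of 0.09. Egfr averaged 127 ± 4.22 CPM in heterozygous and 111 ± 3.94 CPM in wild-type cultures (0.20, SE 0.054), and Axl differed by 0.34 (SE 0.12). Pdgfrb differed by -0.13 (SE 0.054) and Erbb2 by -0.18 (SE 0.072). Kdr, picked out after its values were seen because it is also 1 of the 4 endothelial markers, differed by 0.57 (SE 0.24). Its groups nearly met, at 16.5 CPM in heterozygous culture 18 and 16.4 CPM in wild-type culture 16. Axl overlapped, with wild-type culture 16 at 497 CPM and heterozygous culture 11 at 475 CPM. Without culture 16 Kdr differed by 0.86 and Axl by 0.49, and edgeR called both. That fit partly mixes genotype with culture run.

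Sorting of ubiquitinated cargo, by the complexes that receive receptors after uptake, had 7 of 8 tested genes higher at a median of 0.04. Stam2 differed by 0.08 (SE 0.064), Stam by 0.04 (SE 0.058) and Usp8 by -0.01 (SE 0.067). Among 7 cargo receptors of clathrin pits 3 were higher and the median was -0.07. The transferrin receptor gene Tfrc measured 189, 191 and 205 CPM in heterozygous cultures 11, 15 and 18, against 134, 136 and 189 CPM in wild-type cultures 10, 12 and 16. Wild-type culture 16 stood just below the heterozygous cultures and the other wild-type cultures far below, with a log2 difference of 0.35 (SE 0.13), or 0.54 without culture 16 at an edgeR adjusted p of 0.00554. M6pr differed by 0.15 (SE 0.074), Vldlr by -0.20 (SE 0.19) and Scarb2 by -0.08 (SE 0.081). The synaptotagmin genes that stand for stonin cargo, Syt1 and Syt11, differed by 0.16 (SE 0.33) and 0.01 (SE 0.10).

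**Figure D5:**
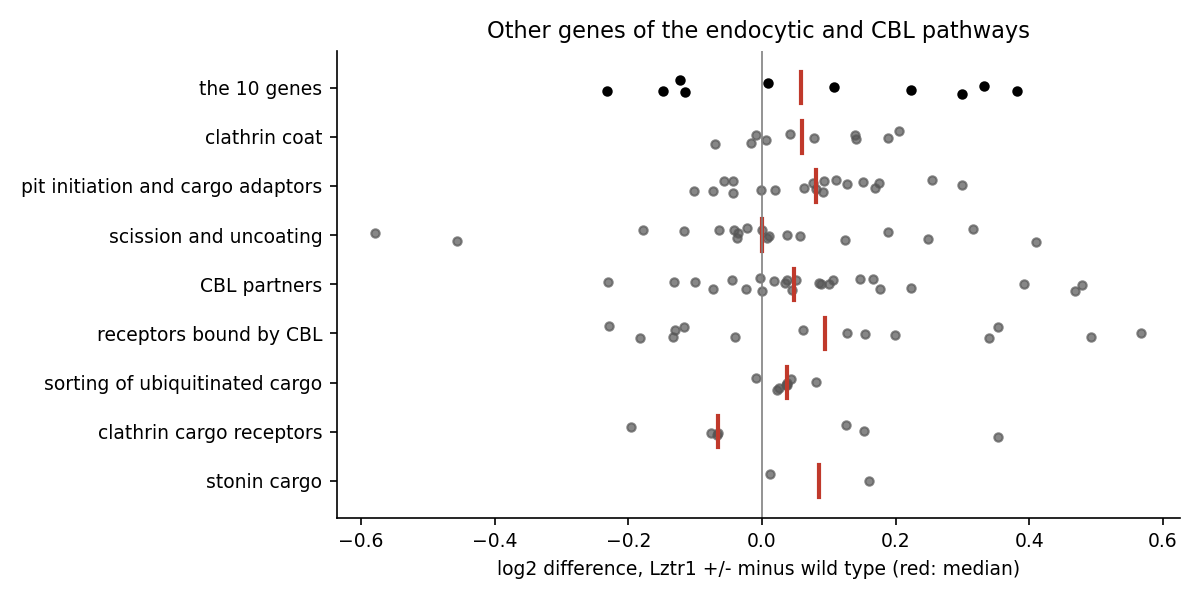
Points are fitted log2 differences, heterozygous minus wild-type, for each tested gene of 8 functional lists and for the 10 genes at the top, with vertical scatter added for legibility and red lines at the medians. All medians lie between -0.07 and 0.09, and single genes reach from -0.58 to 0.57.

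The genes whose profiles over the 6 cultures were most like that of Cbl, by Pearson's r of log2 CPM among 13661 protein-coding genes, were Flna (0.994), Lcor (0.992) and Gm8773 (0.988). For Ston1 they were Phldb2 (0.997), Map4k3 (0.995) and Tpr (0.992). Flna, encoding an actin crosslinker, averaged 3402 CPM in heterozygous and 3000 CPM in wild-type cultures, and Phldb2 averaged 317 and 264 CPM. Lcor was much lower, at 7.17 and 4.67 CPM, and Gm8773 averaged only 1.89 and 1.11 CPM, so its r rests on few reads. With 6 libraries high values are common, and 256 genes exceeded 0.9 with Cbl and 249 with Ston1. The points share their libraries and their separation by genotype, so r describes likeness alone.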

How the data were processed

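Messenger RNA of 6 MEF cultures was sequenced from TruSeq libraries, per the labels' protocols, and the authors deposited 1 RSEM table per library, per the file headers. Per the submitters' processing notes, RSEM 1.3.1, DESeq2 and the build mm10 were used. For the aligner, annotation release and strand setting the sources used here say nothing. Deposited expected counts were rounded to whole numbers, and all 60 values of the 10 genes were whole as deposited. The deposited TPM values were used for levels, the deposited FPKM values for 1 check of their order, and the deposited lengths for the isoform mix. Ensembl numbers gave a symbol to 51633 of 51826 genes, and coordinates are those of GENCODE on mm10. Of the 10 genes 7 overlap a non-coding gene or pseudogene. Without the strand setting it is not known whether reads of opposite strands were told apart. Cbl and Ston2 each overlap 2 such genes, of which 1 is on the other strand, and the gene overlapping Hip1 is on the same strand. For overlaps on the same strand the strand setting would not separate the reads.

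Genes were filtered with filterByExpr, scaled with TMM and tested with edgeR 4.0.16 in R 4.3.3, adjusting over all genes. SE values derive from the F statistic. DESeq2 1.42.0, limma 3.58.1 and other settings served as alternatives, and the steps were tested on simulated counts. The biological coefficient of variation was 11.3%. The genes and lists were chosen with earlier results of these data known. Named list genes are those with the smallest unadjusted p, up to 2 per direction, and some of them are not reported here. Protein sequences were not used here. Promoter windows come from RefSeq, GRCm38.p6.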

Additional observations from a re-analysis of the deposited data

How the results depend on the processing

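No paired analysis was possible because no 2 cultures share a number. Over all genes edgeR called 1, while DESeq2 called 112, edgeR without a low-count filter 32, and edgeR on cultures 10, 12, 15 and 18 alone 1450. In that subset the wild-type cultures are 10 and 12 and the heterozygous ones 15 and 18, so genotype and culture run cannot be told apart. With effective lengths as an offset it called 0 (1625 at an unadjusted p under 0.05), and limma on log2(TPM + 1) and log2(TPM + 0.1) called 0 (1693 and 1681). Leaving out 1 culture gave 0 to 896, the highest without wild-type culture 16, with 909 to 1862 at an unadjusted p under 0.05 in the others. Of the listed pathway genes DESeq2 called 2, cultures 10, 12, 15 and 18 alone gave 19, and leaving out 1 culture gave 0 to 13, again the highest without culture 16. Between the runs of culture numbers edgeR called 7 genes, 17 with Y-linked expression as a term, and 0 to 375 when 1 culture was left out, with 375 without heterozygous culture 11 and 0 without heterozygous culture 15 or wild-type culture 10. These alternatives for the runs were added after seeing the data. The number of genes whose weighted lengths were separated was 1, and 1 to 3 when a culture was left out (3 without wild-type culture 12), while Hip1 stayed between -483 and -392 bases. The cause of these shifts was not tested. The order of levels was the same for all 10 genes in FPKM and in CPM per length. Within a library both are nearly proportional to TPM, so this says little about how firm the order is.

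Of 190 repeated log2 differences of the 10 genes 172 moved by less than the SD within groups. Cbl ranged from 0.26 to 0.37, Ston1 from 0.32 to 0.45, Eps15 from -0.17 to -0.01, Epn2 from -0.33 to -0.05 and Epn1 from -0.15 to -0.07. Ston2 ranged from 0.02 to 0.94. The sign of Cblb, from -0.10 to 0.06, differed in 8 of 19 settings, of Hip1, from -0.28 to 0.14, in 2, and of Sh3kbp1, from -0.24 to 0.45, and Cd2ap, from -0.19 to 0.26, in 1 each. The highest values of Cbl, Cblb, Sh3kbp1 and Cd2ap and the lowest of Eps15, Epn2 and Hip1 came from cultures 10, 12, 15 and 18. For these genes the opposite ends came from culture 11 against culture 16. Genotype and culture run cannot be told apart in either set. List medians changed sign in 3 of 16 settings for pit initiation, 7 for scission, 2 for cargo receptors and 3 for stonin cargo. A floor of 3 counts equals 0.137 to 0.272 CPM, for counting error only, and all 10 genes lay above it in every library.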

Other observations

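Some of the listed pathway genes stayed below the low-count filter. Cblc had 0 to 2 counts per library, Ubash3a, which binds CBL in T cells, 1 to 7, and the synaptotagmin gene Syt2 1 to 7. Vps28 was not analysed here.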
